A study of Caenorhabditis elegans and Caenorhabditis briggsae with 26 samples.

Results

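The mixed-stage reference RNA of the nematode Caenorhabditis briggsae was compared with the stages it is labelled as combining. The comparison holds 13 of the 26 libraries of a developmental series in C. elegans and C. briggsae: 2 reference libraries (A1 and A2) and 11 staged libraries, chosen by their labels. All came from the wild-type strain AF16 at 20 °C, and all were poly(A)-selected. The staged larvae were hatched and arrested without food, then grown in liquid S-medium on bacteria; how the reference worms were grown is not stated there. The staged libraries were mixed embryos (libraries A1, A2 and B), L1 larvae at 6 h after feeding began (A1, A2 and B), L2 at 20 h, L3 at 28 h, early L4 (called L4 here) at 41 h, late L4 at 53 h and young adults at 63 h, the last 5 with 1 library each. Young adults were collected before they carried eggs. The letters A and B mark separate time courses, so embryos and L1 larvae had 2 cultures each. Reference A1 and A2 are replicates of 1 sample, and the differences between them may be technical. The proportions in which the stages were combined are not stated in the labels.

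A nematode larva sheds its cuticle at the end of each larval stage and lays down a new one, and the many genes for cuticle collagens, the main structural proteins of that exoskeleton, are switched on in short pulses around each molt. Embryos, feeding larvae and adults also differ in large blocks of other transcripts: yolk proteins are made in the adult intestine, eggshell and maternal RNA-binding proteins in oocytes, sperm proteins in the germline, and digestive and defence proteins in the feeding gut. When growth conditions are poor, Caenorhabditis larvae can enter an arrested alternative stage, the dauer, with its own cuticle. Gene names below are those of the C. elegans ortholog under which each C. briggsae value was deposited, and the roles given are those known in C. elegans.

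Values are RPKM, which divides a gene's reads by its length and by the mapped reads of the library. A gene was placed above the staged range when its lower reference value exceeded the highest of the 11 staged values, and below it when its higher reference value was under the lowest staged value. Of 12892 genes that reached 1 RPKM in 2 or more of the 13 libraries, 206 (1.6%) lay above the range and 59 (0.458%) below it. These positions follow from the rule and carry no test. Of the 206, 37 had all 11 staged values under 1 RPKM. Those 37 passed the filter only through the 2 reference libraries, which by itself places them above the range. The smallest margins above belonged to gpx-3 (36.4 RPKM in the lower reference library, 36.3 RPKM in the highest staged one), clec-44 and clec-24. Just inside the range lay cct-3, at 38.3 RPKM in the lower reference library against 38.4 RPKM in young adults, then Y6E2A.4 and gsy-1.

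The 2 reference libraries were close to each other but not identical. Across the 12892 genes their log2(RPKM + 1) values had a Pearson correlation of 0.979, which is a description over genes. Reference A1 exceeded A2 by more than 2-fold in 125 genes (0.97%) and A2 exceeded A1 so in 288 genes (2.23%). Cuticle collagens moved with this difference: 137 of 145 were higher in A1, with a median log2 difference of 0.69 against -0.20 over all genes. Without reference A1, 377 genes lay above the range, and without A2 236 did. Reads behind each value are unknown; the lowest common value step, which falls as depth rises, was within 1.05-fold between the reference libraries and ran from 0.883 (L1 A1) to 4.01 times (embryo A2) that of reference A1 in the staged ones, so low values were coarsest in embryo A2.

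**Figure D1:**
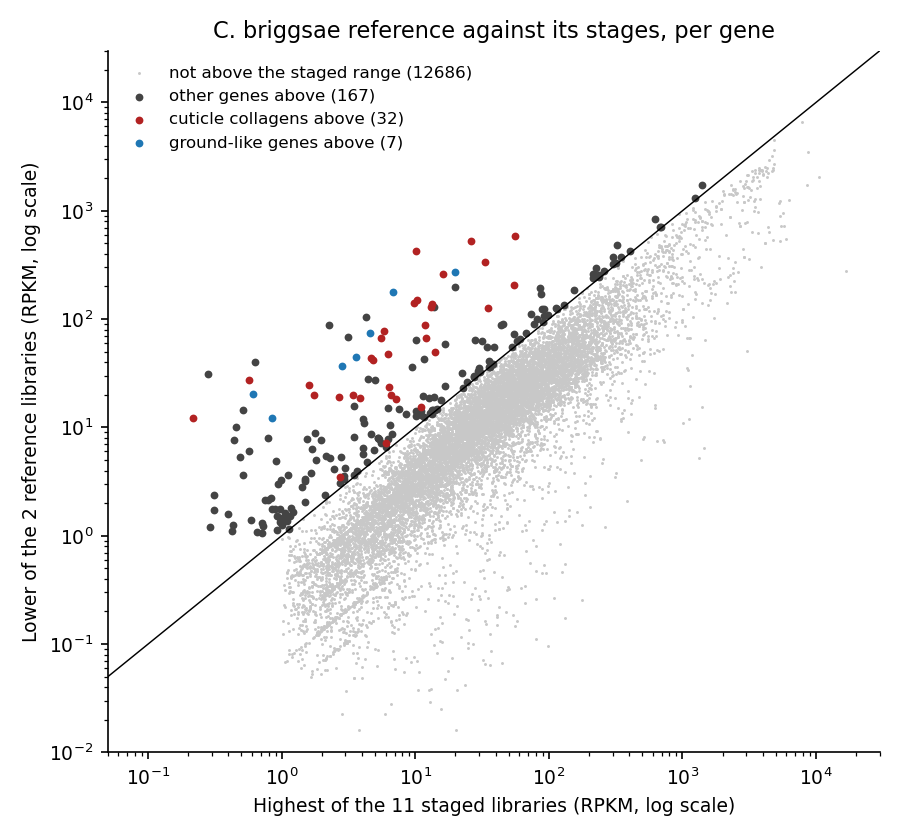
Each point is 1 of the 12892 genes, with its highest RPKM among the 11 staged libraries on the horizontal log axis and the lower of its 2 reference values on the vertical log axis; the line marks equality. The 206 coloured or dark points above the line are the genes above the staged range, and the 32 cuticle collagens among them have highest staged values of at most 55.9 RPKM.

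Most margins above the range were narrow and some were very wide. On the log2(RPKM + 1) scale the median margin was 0.56 and the largest 5.27. A margin of at least 2-fold was found for 75 genes, at least 4-fold for 46, at least 8-fold for 28 and at least 16-fold for 9. The lower reference value was at least 10 RPKM in 132 of the 206 genes and at least 100 RPKM in 47. The highest staged value stood in young adults for 49 genes, in embryos for 42, in L1 for 41, in late L4 for 31, in L4 for 22, in L3 for 15 and in L2 for 6. Embryos and L1 had 3 libraries each and the other stages 1, which gave embryos and L1 more chances to hold it.

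A test across all genes asked which of them were higher in the reference than in every stage (limma on log2(RPKM + 1), libraries of a culture averaged, the largest of 7 one-sided p per direction, Benjamini-Hochberg adjustment, threshold 0.05). It called 34 of 12892 genes higher (0.264%) and 0 lower; at an unadjusted p under 0.05 the counts were 109 and 4. All 34 lay above the range. Of these, asp-18, lipl-8, clec-168, col-114, col-163, daf-42, grl-3, grl-9, scl-27, C13A2.3, F53F4.4 and Y48E1B.8 had passed the filter only through the reference libraries. The fit has 2 residual degrees of freedom, from the embryo and L1 cultures, and the single reference sample is assumed to vary as they do. The count was 11 with culture as a block, 0 after quantile normalization, 0 with a pseudocount of 0.1 RPKM, and 54 with each library as a sample. It was 0 without L1 B, 5 without embryo A1, 5 without reference A1, 19 without L1 A1 and 154 without young adults.

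Cuticle collagens were the largest named family above the staged range. Of 145 members tested, 32 (22.1%) lay above it, against 1.6% of all genes, and 0 lay below. In 14 the reference was higher than every stage by the test, against 0.264% of all genes. With culture as a block 3 of these kept the call (col-114, col-158 and col-163). Of the collagens called, col-114 and col-163 had passed the filter only through the reference libraries. The collagen col-158 (D2023.7) had staged values from 0.284 RPKM (L1 B) through a median of 0.441 to 10.2 RPKM (late L4), and reference values of 661 and 428 RPKM. The reference was thus far outside all 11 staged libraries, with a log2 difference from late L4 of 5.58 ± 0.27 SE (adjusted p = 0.0129).

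The collagen col-43 (ZC513.8) reached 26.0 RPKM in late L4, with a staged median of 3.36 RPKM, while the reference libraries held 756 and 524 RPKM. As col-43 was named for its margin above the range, its lack of overlap follows from the rule. Its log2 difference from late L4 was 4.55 ± 0.77, but it missed the threshold (adjusted p = 0.404). The embryo cultures disagreed on col-43, at 3.36 and 3.45 RPKM in A1 and A2 and 0.565 RPKM in B. Among genes looked at after their values were seen, col-36 (C27H5.5) reached 1046 and 586 RPKM in the reference and at most 55.9 RPKM, in L3 (adjusted p = 0.0386, and 0.0582 with culture as a block). For col-2 (W01B6.7), a collagen of the dauer cuticle, the reference libraries held 598 and 339 RPKM and the stages 0.0952 to 33.1 RPKM, highest in late L4 (adjusted p = 0.0386, and 0.0635 with culture as a block).

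Among the 32 collagens above, highest staged values ran from 0.218 to 55.9 RPKM, with a median of 6.87 RPKM, and lower reference values from 3.49 to 586 RPKM, with a median of 48.9 RPKM. The highest staged library was late L4 for 18 of them, young adults for 7, embryos for 3, L2 for 2 and L3 for 2. Over all collagens tested it was late L4 for 38, L2 for 37, young adults for 25, L4 for 17, L3 for 14, embryos for 13 and L1 for 1. All 32 were higher in reference A1 than in A2, by 0.18 to 1.59 on the log2 scale. Summed over the list, the collagens stayed inside the range: 46816 and 27929 RPKM in the reference against 628 (embryo B) to 83090 RPKM (L2).

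**Figure D2:**
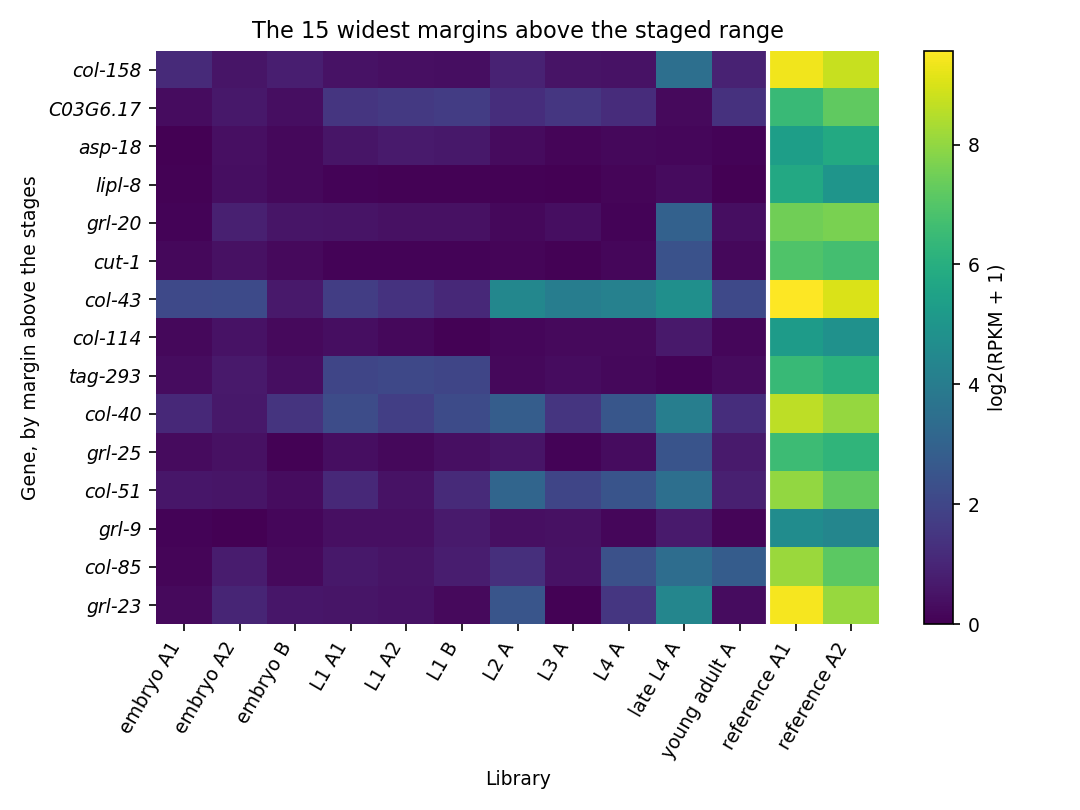
Rows are the 15 genes with the widest margins above the staged range and columns are the 13 libraries, with colour showing log2(RPKM + 1). The 2 reference columns to the right of the white line are the brightest in every row, and late L4 is the brightest staged column for col-158, grl-20, cut-1 and col-43.

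Other cuticle genes followed only in part. The cuticlin cut-1 (C47G2.1), whose product forms the ridges of the dauer cuticle, was found between 0.0484 RPKM (L3) and 4.27 RPKM (late L4), with a median of 0.130 RPKM. The reference libraries held 122 and 103.6 RPKM, 24.3 times the late L4 value for the lower one (log2 difference 4.43 ± 0.23, adjusted p = 0.0129). Of 56 molting and apical matrix genes, 2 (3.57%) lay above the range, cut-1 and cut-6, against 1.6% of all genes. The test called 1 of the 56, against 0.264% of all genes. For cut-6 the reference libraries held 8.05 and 11.5 RPKM against at most 5.29 RPKM, in embryo A1 (adjusted p = 1). The secreted protein gene daf-42, needed for dauer formation, was seen in the reference at 13.2 and 10.1 RPKM and in no stage above 0.458 RPKM (adjusted p = 0.0222, and 0.0548 with culture as a block; chosen after its values were seen). The filter had kept daf-42 only through the reference libraries. Of the 35 genes in the fasting, dauer and stress resistance list, 33 lay inside the range. Whether the reference held dauer larvae was not tested.

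The ground-like genes, a nematode family of secreted proteins related to hedgehog ligands, showed the highest share of all lists. This list was added after the values were seen. Of 24 members tested 7 (29.2%) lay above the range, against 1.6% of all genes, and 6 were higher than every stage by the test, against 0.264% of all genes. With culture as a block 2 of the 6 kept the call. Among the 6, grl-9 and grl-3 had passed the filter only through the reference libraries. For grl-23 (E02A10.2) the staged values ran from 0.0391 RPKM (L3) through a median of 0.458 to 19.8 RPKM (late L4), and the reference libraries held 693 and 270 RPKM. The log2 difference of the reference from late L4 was 4.38 ± 0.31 (adjusted p = 0.0281). For grl-20 (C23H5.9) the reference libraries were close, at 178 and 197 RPKM, and the highest stage was late L4 at 6.84 RPKM (adjusted p = 0.0131). For grl-25 they held 93.9 and 74.6 RPKM against 4.62 RPKM in late L4 (adjusted p = 0.0259). For grl-9 no stage passed 0.613 RPKM, and the reference libraries held 24.02 and 20.2 RPKM (adjusted p = 0.0222). With culture as a block grl-20 and grl-9 kept the call, while grl-23 and grl-25 missed it (adjusted p = 0.0528 for both).

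Most genes of the gut and lectin lists lay inside the range. Of 50 gut proteases, lysozymes and saposin-like genes 8 (16%) lay above and 42 inside, and of 109 C-type lectins, carbohydrate-binding proteins often tied to defence, 11 (10.1%) lay above and 98 inside, against 1.6% of all genes above. In each list 1 gene was called, against 0.264% of all genes. These genes, asp-18 and clec-168, had passed the filter only through the reference libraries. The aspartyl protease gene asp-18 (ZK384.3) was near the bottom of the scale in all stages, from 0.0155 to 0.633 RPKM with a median of 0.159 RPKM. In the reference it stood at 39.9 and 55.7 RPKM, so the lower value was 63.0 times the highest stage, L1 A2 (log2 difference 4.96 ± 0.18, adjusted p = 0.0127). The lipase-like gene lipl-8 (Y50E8A.7), of no list, did not pass 0.283 RPKM in any stage, with a median of 0.0408 RPKM, and held 53.6 and 31.1 RPKM in the reference (log2 difference 5.10 ± 0.20, adjusted p = 0.0127). The lectin clec-168 stood at 5.31 and 8.25 RPKM in the reference and at most 0.490 RPKM in a stage (adjusted p = 0.0386, and 0.0687 with culture as a block), with 10 of its 11 staged values on the shared low level described with the genes below the range.

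The other gut genes had much smaller margins. The saposin-like gene spp-2, of a family that includes antibacterial pore formers, ran from 0.0746 RPKM in embryo A1 to 43.9 RPKM in L3 and stood at 118 and 88.7 RPKM in the reference (log2 difference from L3 1.20 ± 0.34, adjusted p = 1). The near-identical values of spp-2 and spp-6 mean that reads may be shared between these genes. For the lectin clec-85 the reference libraries held 192 and 195 RPKM and the highest stage, L4, 86.2 RPKM (1.16 ± 0.28, adjusted p = 1). By symbol, counted after the values were seen, the families with at least 3 genes above were col (31 of 126), clec (11 of 109), grl (7 of 24), scl, secreted cysteine-rich proteins (6 of 16), spp (6 of 24) and ugt (3 of 56). The shares ran from 5.36% for ugt to 37.5% for scl, against 1.6% of all genes.

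**Figure D3:**
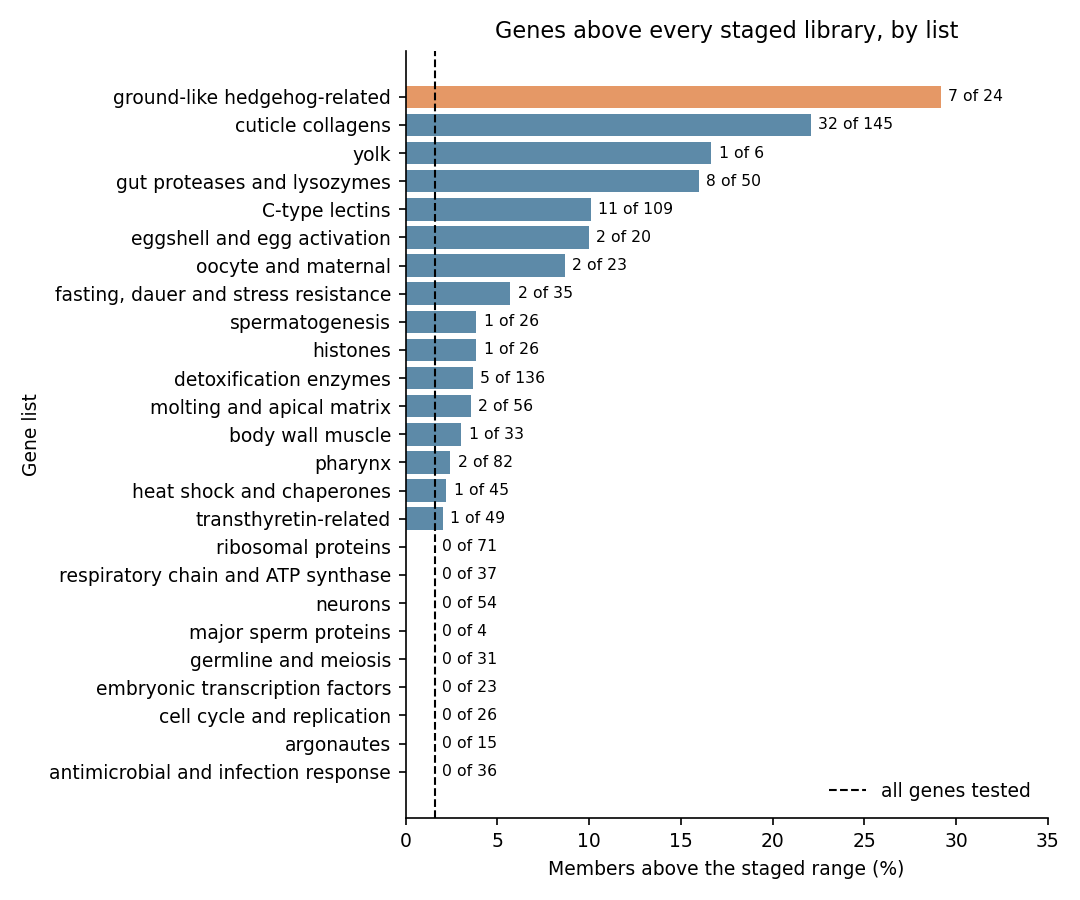
Bars give the percent of tested members of each list that lay above the staged range, with their number beside the bar; the orange list was added after the values were seen. The dashed line marks the 1.6% of all genes, and 9 lists, among them ribosomal proteins and neurons, have 0 members above.

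Of 35 fasting, dauer and stress resistance genes 2 (5.71%) lay above the range, mtl-2 and lipl-3, against 1.6% of all genes. Of 36 antimicrobial and infection response genes 0 did. The metallothionein gene mtl-2 (T08G5.10), a metal-binding stress protein, was highest among stages in L1 (19.8, 19.4 and 12.9 RPKM) and lowest in L3 (0.0658 RPKM), with a median of 2.204 RPKM. The reference libraries held 572 and 196 RPKM, both above every stage, with A1 well over A2 (log2 difference from L1 4.31 ± 0.39, adjusted p = 0.0434, and 0.0694 with culture as a block). The small secreted peptide gene sysm-1 (T24B8.5), a target of p38 immune signalling, reached 128 and 129 RPKM in the reference and at most 13.9 RPKM, in L1 B (adjusted p = 0.0386, and 0.0694 with culture as a block; of no list and chosen after its values were seen). The lysosomal lipase gene lipl-3 stood at 3.60 and 4.62 RPKM in the reference and at most 1.11 RPKM, in L4 (adjusted p = 0.394).

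C03G6.17 and tag-293, for which no role is given here, were also among the widest margins. C03G6.17 stayed between 0.170 and 2.24 RPKM in the stages and stood at 88.998 and 149 RPKM in the reference (log2 difference from L1 5.24 ± 0.24, adjusted p = 0.0129). For tag-293 the stages ran from 0.0534 RPKM to 3.17 RPKM (L1 A2) and the reference libraries held 86.4 and 68.3 RPKM (4.27 ± 0.21, adjusted p = 0.0129). Detoxification enzymes had 5 of 136 members above (3.68%) and 1 below (0.735%), against 1.6% and 0.458% of all genes. The widest of these was the glucuronosyltransferase gene ugt-46, at 55.5 and 88.0 RPKM against at most 34.6 RPKM in L1 A2 (adjusted p = 1).

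The vitellogenins vit-2, vit-3, vit-4 and vit-6 lay inside the staged range, under the young adult level. For the vitellogenin vit-2 (C42D8.2) the young adults held 4885 RPKM, the reference 3041 and 2676 RPKM, and no other stage over 0.376 RPKM. For vit-6 (K07H8.6) these levels were 8700 RPKM, 4392 and 3464 RPKM, and at most 7.85 RPKM, in late L4. The lower reference library thus held 0.548 times the young adult level of vit-2 and 0.398 times that of vit-6, and it held 0.692 and 0.416 times that of vit-3 and vit-4. The split among vitellogenins is uncertain where copies share reads. For vit-1 the reference libraries held 0.338 and 1.83 RPKM, young adults 0.331 RPKM and the stages 0.307 to 5.05 RPKM, with 6 of 11 staged values on the shared low level.

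Most oocyte and eggshell genes lay inside the range (21 of 23 and 18 of 20). Their median log2 ratios of lower reference to highest staged value were -1.03 and -0.64, against -1.41 over all genes. The yolk receptor gene rme-2 (T11F8.3), by which oocytes take up yolk, stood at 329 and 330 RPKM in the reference, 317 RPKM in young adults, at most 53.9 RPKM in embryos and at most 4.00 RPKM in larvae. Its margin was small (log2 difference from young adults 0.06 ± 0.57, adjusted p = 1). The eggshell genes chs-1, a chitin synthase, and cbd-1, a chitin-binding protein, were above young adults by 0.62 ± 0.38 and 0.60 ± 0.61 on the log2 scale (adjusted p = 1 for both). The RNA-binding proteins puf-5 and oma-1, which act on maternal messages, were 1.06 and 1.05 times the young adult level in the lower reference library. In all, 2 of 20 eggshell and egg activation genes (10%) and 2 of 23 oocyte and maternal genes (8.7%) lay above the range. Over all genes the share was 1.6%. Of either list 0 was called against every stage.

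Major sperm protein transcripts lay well under young adults. Summed over the 4 major sperm protein genes tested, which encode the main cytoskeletal protein of nematode sperm, the young adults held 1423 RPKM and the reference 63.6 and 73.2 RPKM, against 0.629 to 5.18 RPKM in the other stages. All 4 lay inside the range. Of 26 spermatogenesis genes 1 (3.85%) lay above, against 1.6% of all genes. It was the sperm activation gene spe-27, at 11.1 and 13.5 RPKM against at most 4.16 RPKM in embryo A1 (adjusted p = 1).

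**Figure D4:**
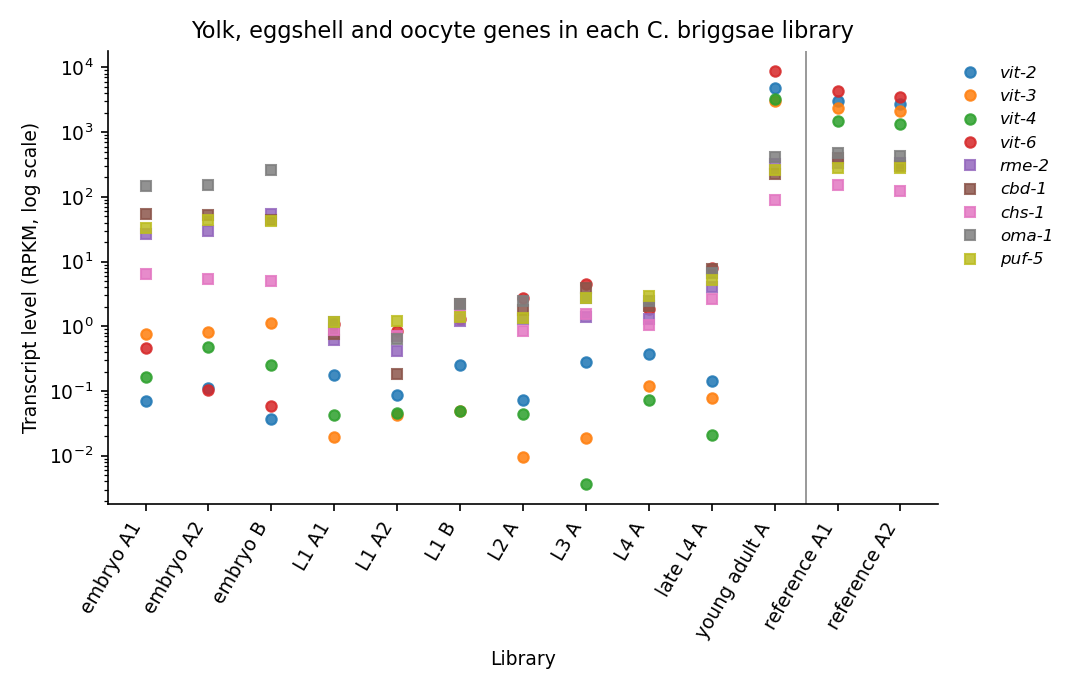
Levels of 4 vitellogenins (circles) and 5 oocyte and eggshell genes (squares) in each library are shown on a log RPKM axis, with the reference libraries right of the vertical line. All 9 genes are far higher in young adults and the reference than in larvae; the reference is under young adults for the vitellogenins and level with or slightly over them for the other genes.

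The remaining lists had few members above the range, as lists of their size would at the 1.6% of all genes. None was found among 71 ribosomal protein genes, 54 neuronal genes, 37 respiratory chain genes, 36 antimicrobial genes, 31 germline and meiosis genes, 26 cell cycle genes, 23 embryonic transcription factors or 15 argonautes. Body wall muscle had 1 of 33, the calponin-like gene unc-87 (374 and 426 RPKM against 345 RPKM in L2; its direction against the nearest stage turned with culture as a block, -0.24). The pharynx had 2 of 82: phat-7 (93.8 and 54.7 RPKM against 38.8 RPKM in L4) and pqn-16 (2.05 and 1.25 RPKM against 1.01 RPKM in embryo B). Heat shock proteins had 1 of 45, the small heat shock protein gene sip-1 (1385 and 1308 RPKM against 1247 RPKM in embryo B). Histones had 1 of 26 above, his-43 (3.66 and 3.82 RPKM against 0.516 RPKM in embryo A2), and transthyretin-related genes 1 of 49, ttr-25 (64.2 and 70.0 RPKM against 28.3 RPKM in L1 A2). The adjusted p was 1 for unc-87, phat-7, pqn-16 and sip-1, 0.0670 for his-43 and 0.589 for ttr-25.

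Genes below the staged range had narrow margins. The median was 0.12 on the log2 scale and the largest 0.80; 5 of the 59 genes were at least 1.5-fold below and 0 at least 2-fold, and 0 was called against every stage. In 30 of them the higher reference value was under 1 RPKM. Many low values in the table stand at a level shared between libraries, where a gene's values keep 1 fixed ratio from library to library to within a relative 1e-06. Such values made up 5.07% and 5.75% of the reference libraries and 5.23% to 19.3% of the staged ones, most in embryo A2. The widest margin below was that of T02D1.7, with reference values of 0.0905 and 0.0948 RPKM and staged values of 0.911 to 2.71 RPKM, all 11 of them on this level. Of the 59 genes 24 had a staged value on it and 14 had at least 6. With those values set to 0, an alternative chosen after seeing the data, 35 genes lay below.

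Other margins below were small in RPKM. The GTPase gene arf-1, the only one of the 59 with at least 100 RPKM in the lower reference library and chosen after its values were seen, stood at 165 and 158 RPKM in the reference and at least 172.9 RPKM in every stage. The caveolin gene cav-2 stood at 4.73 and 4.52 RPKM in the reference, 6.52 RPKM in young adults and up to 22.8 RPKM in L2 (log2 difference from young adults -0.42 ± 0.50, adjusted p = 1). The histone H3.3-like gene his-74 stood at 3.48 and 3.49 RPKM in the reference and from 4.89 RPKM (young adults) to 19.2 RPKM (embryo A1) in the stages (-0.39 ± 0.31, adjusted p = 1). The nuclear receptor gene nhr-237 had 0.433 and 0.594 RPKM in the reference and at least 1.08 RPKM in every stage. The count below was 212 without young adults, 166 without reference A1 and 464 without reference A2, and that above was 496 without young adults.

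Against the mean of the 7 stages, a wider set of genes differed. The limma contrast called 514 of 12892 genes higher (3.99%) and 13 lower (0.101%), with a median log2 difference of 0.07 over all genes; at an unadjusted p under 0.05 the counts were 1703 and 430. A mean of logs lies under the log of the mean, so an equal mixture of the stages would lie above it for genes that vary between them; against the log of the arithmetic mean the median was -0.15. Calls were made for 73 of 145 cuticle collagens, all higher (median 2.03), 18 of 23 oocyte and maternal genes (median 2.76), 14 of 20 eggshell genes (median 3.05) and all 4 major sperm proteins (median 2.19). Vitellogenins had the largest differences, 9.52 for vit-2 and 9.29 for vit-3 (adjusted p = 0.000577 for both). Neuronal and respiratory chain genes had 0 calls and medians of -0.02 and -0.20. With culture as a block 25 genes were called lower. Without embryo B 907 genes were called higher and 84 lower, and without L1 B 178 and 2. The count lower was also 36 without young adults, 31 without L1 A2, 25 without reference A1, 22 without reference A2, 8 without L2 and 7 without L1 A1.

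Each reference library was then described as a weighted sum of the 7 stage means, with weights of at least 0 fitted by least squares. Over the 2 libraries the weights were 0.352 ± 0.102 (SD, n = 2 libraries of 1 sample) for young adults, 0.169 ± 0.0167 for L3, 0.125 ± 0.00867 for embryos, 0.105 ± 0.115 for late L4, 0.0898 ± 0.00464 for L4, 0.0749 ± 0.104 for L1 and 0.0528 ± 0.0130 for L2. Late L4 and L1 changed places between the libraries: late L4 had 0.186 in A1 and 0.0234 in A2, and L1 had 0.00142 in A1 and 0.148 in A2. The fitted sum was within 2-fold of the measured value for 92.5% of genes in A1 and 92.6% in A2. In both libraries 241 genes (1.87%) were over 2-fold above the fit and 392 (3.04%) over 2-fold below. Of the collagens 46 of 145 were over 2-fold above it in both libraries, and of the ground-like genes 7 of 24. All 4 major sperm proteins and 7 of 23 embryonic transcription factors were over 2-fold below it in both.

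The same comparison in C. elegans (wild-type N2 at 20 °C, 2 reference and 11 staged libraries), from other animals, gave a measure that the C. briggsae rule did not use. The C. elegans L1 were taken at 7 h after feeding began, L2 at 20 h and L3 at 29 h. L4 followed at 41 h, late L4 at 52 h and young adults at 57 h, against 63 h for C. briggsae young adults. Of the 206 genes, 172 were tested there, and 60 of these (34.9%) lay above the C. elegans range too; over the 11983 genes tested in both species 693 (5.78%) did, and the 60 are 8.66% of them. Of the 142 cuticle collagens tested in both species 32 lay above in C. briggsae and 32 in C. elegans, 24 in both. Of the 23 ground-like genes 7 and 6 did, with 6 in both. The gut list had 7 and 6 of 46, with 1 in both, and the C-type lectins 6 and 10 of 73, with 0 in both. The gut and lectin overlaps were not tested against those that unrelated positions would give. Among the named genes above in both species were col-158 (100.2 and 81.2 RPKM in the C. elegans reference, at most 47.6 RPKM in L4, a narrower margin than in C. briggsae), cut-1 (32.4 and 22.01 RPKM, at most 6.23 RPKM in L2), grl-20 (43.7 and 47.7 RPKM, at most 6.68 RPKM in L2) and mtl-2 (673 and 741 RPKM, at most 18.2 RPKM in young adults).

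The size of the difference was compared between species as reference minus mean of the stages in 1 limma fit of both. Over 13335 genes, 283 (2.12%) were called higher in C. briggsae and 782 (5.86%) lower; at an unadjusted p under 0.05 the counts were 1057 and 2128, and with culture as a block 137 and 312. Of the 206 genes, picked for high C. briggsae values, 77 were called higher and 4 lower. Among the genes named here with the widest margins, the largest were asp-18 (5.35 ± 0.16 SE on the log2 scale, adjusted p = 1.24e-05) and lipl-8 (5.14 ± 0.16, adjusted p = 1.24e-05). In C. elegans asp-18 did not pass 0.134 RPKM and lipl-8 did not pass 0.268 RPKM in any of 13 libraries. For col-158 the difference was 3.75 ± 0.39 (adjusted p = 0.00262), and for mtl-2 -1.27 ± 0.88 (adjusted p = 0.440).

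**Figure D5:**
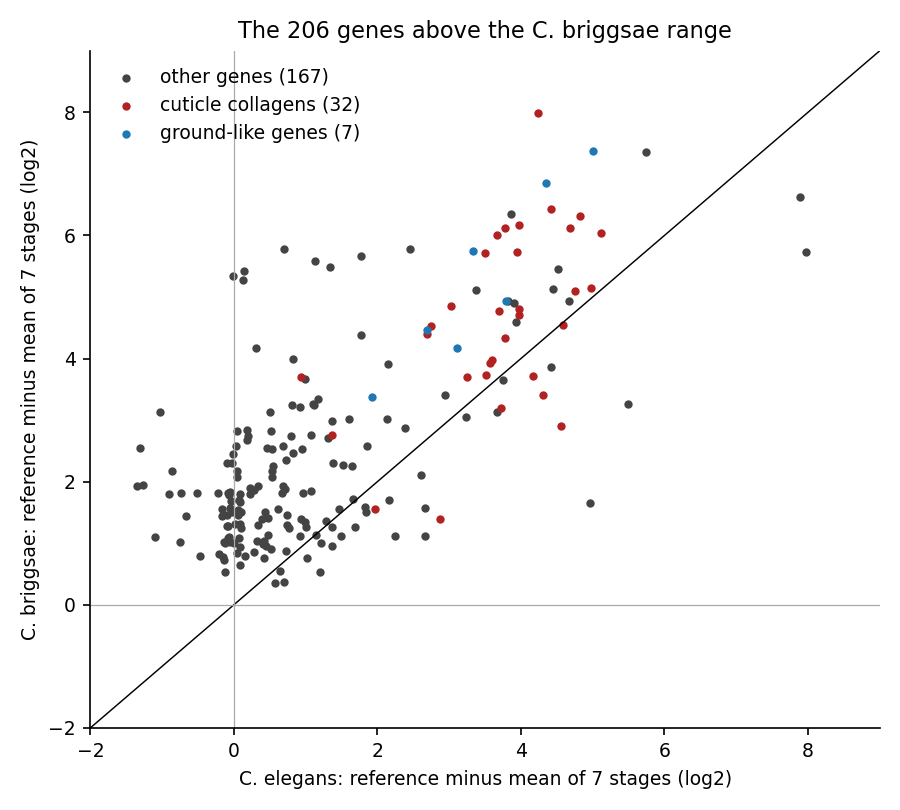
For the 206 genes above the C. briggsae range, the reference minus the mean of the 7 stages on the log2 scale is shown in C. elegans (horizontal axis) and C. briggsae (vertical axis); the line marks equality. The collagens and ground-like genes are positive in both species, and a column of other genes, among them asp-18 and lipl-8, lies near 0 in C. elegans.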

How the data were processed

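The authors deposited 1 table of RPKM values per gene and library, with C. briggsae values under C. elegans ortholog IDs. The submitters' processing notes name BWA 0.5.7, a read aligner. The genome builds, annotation, ortholog source and counting method were not given in the sources used here. Read depth is unknown, so no counting interval is given; RPKM sums ran from 516091 to 667794 per C. briggsae library. Of 21774 IDs, 13938 had C. briggsae values; IDs with identical values were counted once, leaving 13848, of which 13551 matched RefSeq and 6 Ensembl gene names.

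Genes that reached 1 RPKM in 2 or more libraries were kept (12892). limma 3.58.1 (R 4.3.3) with a variance trend was run on log2(RPKM + 1), with a pseudocount of 1 RPKM, which understates changes of low genes. Libraries of a culture were averaged, leaving 10 samples in 8 groups (20 samples in the species fit). p-values were Benjamini-Hochberg adjusted over all genes. Stage weights came from nonnegative least squares (scipy 1.17.1), with each gene divided by its highest value. A and B are separate time courses per the labels' protocols; across genes, the culture A minus B deviations of embryos and L1 had a correlation of 0.19.

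Members and lists were chosen with earlier results of these data known. Named genes are the 15 widest margins above and 10 below, the 2 widest per list and direction, and the yolk genes; others are marked as chosen after their values were seen. Alternatives changed the scaling, filter, pseudocount, margin, sample unit, culture block and libraries.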

Additional observations from a re-analysis of the deposited data

Results flagged for a closer look

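The difference between the reference and the mean of the stages was itself tested between the species (C. briggsae minus C. elegans, log2 scale, limma with Benjamini-Hochberg adjustment over 13335 genes, adjusted p from 1.24e-05 to 0.0374), and 28 named genes passed. These genes were named for their position in C. briggsae, so their direction is in part set by that choice.

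For digestive genes and genes of no list the values were 5.35 for asp-18, 5.14 for lipl-8, 5.08 for C03G6.17 and 3.33 for tag-293. Among cuticle genes the values were 3.75 for col-158, 2.22 for col-51, 2.33 for col-85, 1.06 for col-114 and 2.49 for cut-1, and in C. elegans the reference was also over the mean of its stages for each of these. The ground-like genes gave 2.50 for grl-20, 2.41 for grl-25, 2.36 for grl-23 and 1.07 for grl-9. Further positive values were 2.50 for clec-168, 2.30 for clec-85, 2.33 for phat-7, 2.04 for his-43 and 1.67 for ttr-25.

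Among genes below the C. briggsae range the difference was -0.97 for T02D1.7, -3.28 for E03H12.7, -1.70 for C45B11.8 and -2.19 for ZK1053.2. It was -1.81 for EGAP1.1, -1.64 for F32D8.2 and -3.16 for his-74. On the shared low level stood all 11 staged C. briggsae values of T02D1.7 and 8 of EGAP1.1. That level also held 10 each of E03H12.7, C45B11.8, ZK1053.2 and F32D8.2, and 0 of his-74. The vitellogenins vit-3 and vit-4 had positive values of 2.44 and 2.40 and vit-1 a negative one of -5.65; the split of reads between these copies is uncertain.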

How the results depend on the processing

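The single reference sample and stages with 1 library limit every test, with 2 residual degrees of freedom within C. briggsae and 4 in the species fit. With culture as a block both fits have fewer residual degrees of freedom than these. The count above the range (206) was 99 and 75 at margins of at least 1.5-fold and 2-fold, and 207 to 496 with a library left out. The count below (59) was 32 with a filter of 5 RPKM, 458 after quantile normalization, 100 after median-ratio scaling, 35 with the shared low level set to 0 (chosen after seeing the data), 5 and 0 at margins of 1.5-fold and 2-fold, and 60 to 464 with a library left out. The 34 genes higher than every stage became 0 after quantile normalization, 0 and 60 with pseudocounts of 0.1 and 5 RPKM, 54 with each library as a sample, 11 with the replicate block (culture), and 0 to 154 with a library left out. Against the mean of the stages, 514 higher became 280 with a pseudocount of 0.1 RPKM, 1567 with each library as a sample and 178 to 907 with a library left out. The 13 lower became 28 after quantile normalization, 31 after median-ratio scaling, 4 and 33 with pseudocounts of 0.1 and 5 RPKM, 296 with each library as a sample, 25 with the replicate block and 2 to 84 with a library left out. The median difference was -0.15 against the arithmetic mean. Between species, 283 higher became 429 with a pseudocount of 5 RPKM, 137 with the replicate block and 913 with each library as a sample, and 782 lower became 426 after quantile normalization, 312 and 1726. Stage weights on linear RPKM were 0.103 for embryos, 0.0863 for L2, 0.0836 for L3, 0.194 for L4, 0.151 for L1 and 0.0245 for late L4; with log2 residuals they were 0.0621 for embryos, 0.0729 for L2, 0.0204 for L4 and 0.191 for late L4; after median-ratio scaling they were 0.162, 0.0253, 0.125 and 0.0789 for embryos, L2, L3 and L4. Of 15 named genes called against every stage, 0 kept the call after quantile normalization, 0 with a pseudocount of 0.1 RPKM, 0 without L1 B and 9 with the replicate block; vit-2, vit-3, vit-4 and vit-6, called against the mean of the stages, kept that call in each. The causes were not tested.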

Other observations

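In 37 genes both reference libraries held at least 1 RPKM and all 11 staged libraries were under 1 RPKM. They passed the filter only through the reference libraries, so their place above the range follows from that choice. In 8 of them the lower reference value was at least 10 RPKM: asp-18, lipl-8, col-114, grl-9, Y48E1B.8, grl-3, col-163 and daf-42. Of these, grl-3, col-163, Y48E1B.8 and daf-42, and scl-27 among the others, were chosen after their values were seen. The collagen gene col-163 stood at 14.01 and 12.2 RPKM in the reference and at most 0.218 RPKM in a stage, and col-114 at 37.1 and 27.6 RPKM. Y48E1B.8 stood at 14.6 and 28.1 RPKM, and the ground-like gene grl-3 at 12.3 and 14.4 RPKM. The secreted protein gene scl-27 stood at 7.9998 and 8.49 RPKM, with at most 0.787 RPKM in a stage.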
